A study of Mus musculus with 64 samples.

Results

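Transcript levels of wild-type mouse hearts were compared 1 week after transverse aortic constriction (TAC), in which a ligature narrows the aorta and the left ventricle must pump against a higher pressure, and after sham surgery. The 8 hearts were chosen by their labels alone, as all wild-type hearts of the week 1 TAC group (WTTAC, 4 hearts, numbered 1, 2, 4 and 5) and of the week 1 sham group (WTSH, 4 hearts, numbered 1 to 4), out of 64 hearts in the series. All mice were adult C57BL6 males aged 3 to 4 months at surgery. The WTTAC aorta was tied against a 27-gauge needle through a left thoracotomy, and WTSH mice had the same operation without the constriction. The colony carries a floxed allele of Ndufs4, a subunit of mitochondrial complex I, which Cre under the cardiomyocyte αMHC promoter deletes in the knockout (KO) mice. The labels call the 8 hearts WT and do not say whether they carried the floxed allele or the Cre transgene. Each library came from the snap-frozen cardiac tissue of 1 heart, and the labels do not say which chambers were taken. Nothing in the labels ties a heart to a litter, a surgeon or a day, so none of these could be modelled. The limma p-values measure the spread between hearts within groups, pooled over all 64 libraries in 16 groups and not over these 8 hearts alone.

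Levels are given as FPKM (fragments mapped to a gene, scaled by transcript length and by the library total), always in the order of the heart numbers. Differences are WTTAC minus WTSH means of log2(FPKM + 1), a scale that understates the change of low genes, and a gene was called at a Benjamini-Hochberg adjusted p under 0.05 in limma. At week 1, 6992 of 13653 genes tested were called higher in WTTAC hearts (51.2%) and 659 lower (4.83%), and the 8 hearts did not overlap between the groups for 6752 genes (49.5%). The median difference over all genes was 0.31, so the whole scale lay above 0. When each library was rescaled by the median of ratios, so that the median difference became 0.0047, 3154 genes were higher (23.1%) and 2580 lower (18.9%). All 3154 were among those higher as deposited, and all 659 lower genes stayed lower after scaling. Another 1908 genes were lower only after scaling and 13 changed direction. Results below are therefore read first from calls that held on both scales, and a call that held on 1 scale is named as such. Each list count, and each lack of overlap between the groups, is to be set against these shares of all genes. Mitochondrially encoded entries never listed at 0 went against this upward shift, with lower means in WTTAC hearts. The 2 mitochondrial ribosomal RNAs were at 39.9% and 49.5% of their WTSH level in WTTAC hearts, and 7 of the 12 mitochondrial tRNA entries never listed at 0 had all WTTAC hearts below all WTSH hearts. These tRNA entries are only 66 to 75 bases long, and only 2 of 13 mitochondrial protein entries were never listed at 0, so mitochondrial levels are uncertain. The part of these entries in the shift was not tested. WTTAC hearts had 12615 to 13101 genes at an FPKM of 1 or more and WTSH hearts 11895 to 12145, and read depth cannot be read from FPKM values.

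WTTAC heart 5 stood apart from the other WTTAC hearts. Over 1608 genes, those called in KO hearts at week 1 whose mean change in hearts 1, 2 and 4 was at least 1 on the log2 scale in either direction, it showed a median 46.1% of the change of hearts 1, 2 and 4, and it lay closest to the WTSH hearts in 4227 of the 5675 genes called higher without overlap and in 293 of the 433 called lower without overlap. Along the response of KO hearts at the same week, scored as the mean over 4354 genes that rose there minus the mean over 684 that fell, hearts 1, 2 and 4 lay at 1.396, 1.623 and 1.637 and heart 5 at 0.778, with the WTSH hearts between -0.06 and 0.05. Heart 5 therefore lay between the WTSH hearts and the other WTTAC hearts. Without it, 7159 genes were called higher and 794 lower, and 6782 of the 6992 higher and 625 of the 659 lower genes were called again. It was kept in all tests and is given last in every set of WTTAC values. Pearson's r across genes was 0.961 to 0.976 between WTSH hearts, 0.936 to 0.979 between WTTAC hearts and 0.903 to 0.957 between the groups (genes are not independent points), and no 2 libraries of the series held identical values.

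A ventricle under pressure overload thickens as its cardiomyocytes grow. Stretch and hormones switch on a stress program that includes genes of the fetal heart, resident fibroblasts become matrix-producing cells, monocytes enter the tissue, and the adult program of fatty acid oxidation and fast calcium cycling is turned down. Natriuretic peptides, secreted by stretched cardiomyocytes, are the usual measure of the first of these. The promoters of 3 genes of that early response are shown here because their regulatory boxes are textbook elements of it. The 250 bases before the start of each gene are printed 5′ to 3′ from RefSeq (GRCm38.p6), with the boxes that were searched for in capitals. Nppb encodes brain natriuretic peptide (chr4:147985650-147985899 on the plus strand), Ankrd1 a stretch-responsive titin-binding protein (chr19:36119845-36120094 on the minus strand) and Sprr1a a small proline-rich protein induced by stress in cardiomyocytes (chr3:92485882-92486131 on the minus strand).
Nppb: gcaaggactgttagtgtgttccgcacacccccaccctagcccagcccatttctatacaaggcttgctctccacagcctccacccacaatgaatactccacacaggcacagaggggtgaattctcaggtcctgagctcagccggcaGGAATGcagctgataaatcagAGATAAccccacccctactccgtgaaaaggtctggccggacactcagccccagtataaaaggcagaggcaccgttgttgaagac
Ankrd1: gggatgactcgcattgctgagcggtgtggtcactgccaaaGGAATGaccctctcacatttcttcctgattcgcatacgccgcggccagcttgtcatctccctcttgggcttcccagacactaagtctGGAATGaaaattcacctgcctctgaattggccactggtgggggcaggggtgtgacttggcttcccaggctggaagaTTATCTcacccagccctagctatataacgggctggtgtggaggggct
Sprr1a: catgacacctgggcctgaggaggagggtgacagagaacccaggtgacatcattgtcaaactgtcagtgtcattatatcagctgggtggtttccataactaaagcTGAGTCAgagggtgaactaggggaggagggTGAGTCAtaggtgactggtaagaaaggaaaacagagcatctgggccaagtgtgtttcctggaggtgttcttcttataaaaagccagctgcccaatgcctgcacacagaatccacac

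The capitals in Nppb mark an M-CAT box (CATTCC on either strand), the site of TEAD factors, at -105 and a GATA box (AGATAA) at -84. In Ankrd1 they mark M-CAT boxes at -210 and -123 and a GATA box at -47, and in Sprr1a AP-1 boxes (TGANTCA), the site of Fos and Jun dimers, at -146 and -116. Positions are those of the first base of the box, counted back from the start. Both strands were searched, and none of the printed boxes overlap. Among 424 genes with a promoter in the table that rose at least 2-fold on both scales (of 628 such genes), 8.0% held an AP-1 box, against 4.3% of 8858 genes tested with a promoter. For the M-CAT box the shares were 12.0% and 10.6%, for GATA 6.4% and 5.8%, for the E-box CACGTG 6.4% and 8.6%, and for the CArG box 1.4% and 1.2%. Among 40 promoters of 72 genes that fell at least 2-fold on both scales, 17.5% held the GATA box, 7.5% the AP-1 box, 7.5% the E-box, 5.0% the M-CAT box and 0.0% the CArG box. These shares are descriptions of the letters in these windows.

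The stress and fetal program rose almost as a whole. Of 21 members tested, 17 were higher and 0 lower as deposited, with a median difference of 2.00 against 0.31 over all genes, and 16 were higher after scaling, with a median of 1.63. Nppa, which encodes atrial natriuretic peptide and lies at chr4:147374831-147376188 (mm9), had 169.8, 399.5, 103 and 124 FPKM in WTSH and 6673, 8604, 4726 and 2133 FPKM in WTTAC hearts. Its difference was 4.83 (SE 0.67, adjusted p = 4.3e-08). The lowest WTTAC heart, heart 5, lay above the highest WTSH heart. Nppb (chr4:147359897-147361314) had 242, 206, 195 and 130.4 FPKM in WTSH and 1267, 1003, 978 and 630.0 FPKM in WTTAC hearts, a difference of 2.31 (SE 0.50, adjusted p = 0.00013) and of 1.94 after scaling (adjusted p = 0.0012). WTSH heart 2, the highest sham for Nppa, was also rich in atrial transcripts, with the atrial myosin light chain Myl7 at 234 FPKM. Myl7 had 18.5, 234, 0.151 and 0.239 FPKM in WTSH and 6.67, 51.4, 82.7 and 0.15 FPKM in WTTAC hearts, and Sln, the atrial sarcolipin, had 3.65, 74.1, 0.0915 and 0 FPKM in WTSH and 1.83, 14.7, 23.1 and 0 FPKM in WTTAC hearts. Both were named after their values were seen. Of 10 atrial genes tested, Nppa among them, 3 were higher and 3 lower on each scale. Their median distance from the WTSH mean was 0.03, 1.42, -0.91 and -0.84 on the log2 scale in WTSH and -0.44, 1.67, 1.885 and -0.75 in WTTAC hearts, high in WTSH heart 2 and WTTAC hearts 2 and 4. WTTAC heart 5 had no Sln, 0.15 FPKM of Myl7 and 2133 FPKM of Nppa, and the highest Nppa, 8604 FPKM, was in WTTAC heart 2. The part of atrial transcripts in the Nppa difference was not tested.

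Among the other members of the list, Ankrd1 had 818, 476, 325 and 221 FPKM in WTSH and 3736, 3768, 2586 and 2139 FPKM in WTTAC hearts, a difference of 2.86 (SE 0.49, adjusted p = 2.3e-06). Xirp2, an actin-binding protein of the intercalated disc, rose by 1.95 (SE 0.31, adjusted p = 5e-07), Fhl1, a titin-associated stretch sensor, by 1.82 (SE 0.34, adjusted p = 1.6e-05), and Ankrd23 by 1.34 (SE 0.37, adjusted p = 0.002). In all 3 the groups did not overlap, as for 49.5% of all genes. Csrp3, the muscle LIM protein of the Z-disc, had 1047, 1036, 883 and 844 FPKM in WTSH and 1350.4, 1483, 1690.4 and 1885 FPKM in WTTAC hearts, a smaller but even rise of 0.74 (SE 0.14, adjusted p = 2.3e-05) in which heart 5 was the highest. Rcan1, a target and inhibitor of calcineurin, had 27.5, 36.4, 32.3 and 26.6 FPKM in WTSH and 143, 141, 177 and 68.1 FPKM in WTTAC hearts, a difference of 2.00 (SE 0.39, adjusted p = 2.2e-05). Among secreted members, the stress cytokine Gdf15 had 0.577, 0.543, 0.459 and 0.388 FPKM in WTSH and 30, 13.9, 16.1 and 0.739 FPKM in WTTAC hearts, a difference of 2.86 (SE 0.54, adjusted p = 1.5e-05). Hearts 1, 2 and 4 carried the rise, and heart 5 lay just above the WTSH hearts. Ctgf, a matricellular target of TGF-beta and YAP, had 27.9, 15, 12.9 and 13.4 FPKM in WTSH and 371, 319.9, 355 and 68 FPKM in WTTAC hearts, and the chaperone clusterin (Clu) had 212, 205, 177 and 145 FPKM in WTSH and 2186, 3216, 2795 and 519 FPKM in WTTAC hearts, with differences of 3.74 and 3.28 (SE 0.38, adjusted p = 1e-09). Nmrk2, a nicotinamide riboside kinase of muscle, had 1.67, 2.66, 2.82 and 1.4 FPKM in WTSH and 21.7, 30.2, 35.4 and 39 FPKM in WTTAC hearts and was highest in heart 5. Its difference was 3.37 (SE 0.66, adjusted p = 2.8e-05). Uchl1, a ubiquitin hydrolase, rose by 3.03 (SE 0.42, adjusted p = 4.7e-08).

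Outside that list, Sprr1a (chr3:92287877-92289816), whose promoter is printed above with its AP-1 boxes, had 0, 0.27, 0.152 and 0 FPKM in WTSH and 39.2, 60.7, 320.2 and 3.27 FPKM in WTTAC hearts. Its difference was 5.29 (SE 0.73, adjusted p = 4.4e-08), and heart 4 had the highest level. The pleiotrophin gene Ptn, which encodes a heparin-binding growth factor, had 4.13, 2.55, 0.651 and 0.78 FPKM in WTSH and 109.8, 177, 48.1 and 4.37 FPKM in WTTAC hearts, a difference of 4.14 (SE 0.70, adjusted p = 2e-06). Uck2, a uridine and cytidine kinase, was among the 15 largest rises with 10.1, 10.8, 242 and 207 FPKM in WTSH and 1752, 774, 1362 and 504 FPKM in WTTAC hearts. Its WTSH hearts fell into 2 levels, hearts 1 and 2 low and hearts 3 and 4 high, and its difference was 4.28 (SE 1.22, adjusted p = 0.0027). Among the largest falls outside the lists were the ephrin Efnb3, with 36.9, 33.1, 29.8 and 30 FPKM in WTSH and 11.2, 7.5, 9.75 and 15.8 FPKM in WTTAC hearts, and the galectin Lgals4, with 9.22, 10.1, 10.6 and 11.9 FPKM in WTSH and 3.23, 1.6, 1.06 and 4.92 FPKM in WTTAC hearts. Their differences were -1.51 (SE 0.29, adjusted p = 2.1e-05) and -1.75 (SE 0.39, adjusted p = 0.0002).

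The 4 members that were not called were Myh7, Ankrd2, Mybphl and Hamp, and Xirp1 was called only as deposited. Myh7, the slow β-myosin heavy chain of the fetal ventricle, had 410.0, 529, 486 and 458 FPKM in WTSH and 1137, 1311, 467 and 512 FPKM in WTTAC hearts. Hearts 1 and 2 were above every WTSH heart, while hearts 4 and 5 lay within the WTSH range (difference 0.72, SE 0.36, adjusted p = 0.08). Myh6, the fast α-myosin heavy chain of the adult ventricle, had 3479, 3255, 3603 and 3450.0 FPKM in WTSH and 1962, 1794, 1559 and 3125 FPKM in WTTAC hearts, all below the WTSH hearts. Because Myh6 was listed at 0 in 4 libraries of the series its limma standard error was 1.83, and an exact two-sided permutation test over the 8 hearts was used instead (log2 difference -0.76, unadjusted p = 0.0286, the smallest that 70 splits can give). Any gene without overlap between the groups gives this p, as for 49.5% of all genes. The test therefore adds nothing to the lack of overlap. The ratio of Myh7 to Myh6, which does not depend on scaling, was 11.8% to 16.3% in WTSH hearts and 58.0%, 73.1%, 30.0% and 16.4% in WTTAC hearts.

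**Figure D1:**
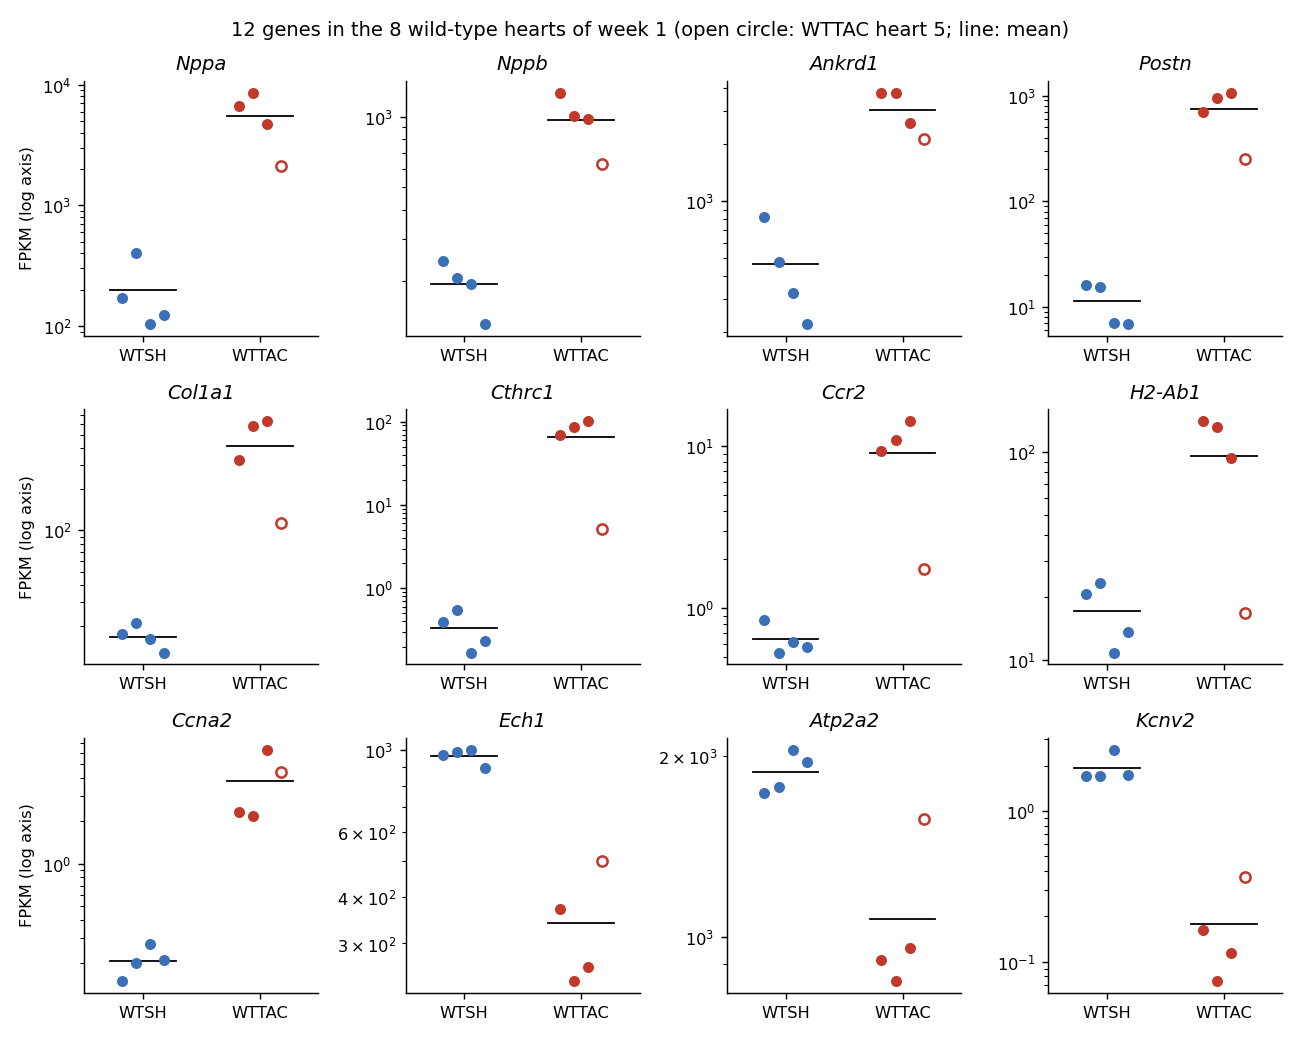
FPKM of 12 genes on log axes in the 4 WTSH and 4 WTTAC hearts of week 1, each point a heart, the line the group mean and the open circle WTTAC heart 5. For 11 genes all WTTAC hearts lie to 1 side of the WTSH hearts, and for H2-Ab1 heart 5, at 16.9 FPKM, lies among them. Of all genes tested, 49.5% had no overlap between the groups.

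Extracellular matrix genes showed the largest rises in the data. All 23 collagen chains tested were higher as deposited and 22 after scaling, with median differences of 2.69 and 2.33, and none was lower. The chain lost was Col4a3. The 2 chains of type I collagen, the main fibrillar collagen of scar, moved together. Col1a1 (chr11:94797538-94814356) had 17.5, 21, 16 and 12.8 FPKM in WTSH and 329, 577, 628 and 113 FPKM in WTTAC hearts, and Col1a2 had 22.6, 23.2, 16.2 and 14.5 FPKM in WTSH and 410.3, 621, 594 and 119.7 FPKM in WTTAC hearts. Their differences were 4.28 (SE 0.43, adjusted p = 5.6e-11) and 4.22 (SE 0.40, adjusted p = 1.9e-11). Col3a1, the type III fibrillar chain, rose by 4.09 (SE 0.43, adjusted p = 1.7e-10). Col8a1, a short-chain collagen, had 5.12, 3.88, 3.31 and 2.92 FPKM in WTSH and 85.1, 117, 116 and 41.3 FPKM in WTTAC hearts, and the fibril-nucleating Col5a2 had 5.93, 6.77, 5.08 and 4.47 FPKM in WTSH and 134, 168, 183 and 40.4 FPKM in WTTAC hearts. Those rises were 4.15 (SE 0.36, adjusted p = 3.2e-12) and 4.14 (SE 0.38, adjusted p = 7.7e-12). The summed level of the 23 chains was 218 to 287 FPKM in WTSH and 1180 to 3580 FPKM in WTTAC hearts, the lowest being heart 5. In bulk tissue, more matrix-producing cells and more RNA per cell cannot be told apart.

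The enzymes that process collagen rose with it. Of 20 tested, 20 were higher as deposited (median 1.48) and 18 after scaling (median 1.14), the prolyl hydroxylase subunits P4ha1 and P4ha2 being called only as deposited. Lox, the lysyl oxidase that crosslinks collagen and elastin, had 1.02, 1.03, 1.01 and 0.567 FPKM in WTSH and 49.9, 79.2, 108 and 12.8 FPKM in WTTAC hearts, a difference of 4.72 (SE 0.46, adjusted p = 3e-11). Bmp1, the C-propeptide proteinase, had 6.34, 6.79, 5.96 and 6.51 FPKM in WTSH and 27, 35, 37.2 and 17.1 FPKM in WTTAC hearts and rose by 1.97 (SE 0.18, adjusted p = 7.7e-12). Adamts2, the N-propeptide proteinase, rose by 2.77 (SE 0.28, adjusted p = 4.9e-11). Bmp1 had the tighter groups, with a highest WTSH heart of 6.79 FPKM and a lowest WTTAC heart of 17.1 FPKM.

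Matricellular and fibroblast-activation genes had the highest list median, 3.01 as deposited and 2.68 after scaling. Of 45 tested, 42 and 41 were higher and 0 lower, and Nov, Fbln1 and Acta2 were not called. Postn (periostin, chr3:54165031-54194961), which marks activated cardiac fibroblasts, had 16.1, 15.4, 7.08 and 6.84 FPKM in WTSH and 705, 939.8, 1067 and 249 FPKM in WTTAC hearts. It was the largest called rise of all genes without overlap between the groups, 5.81 (SE 0.53, adjusted p = 7.7e-12) and 5.45 after scaling (adjusted p = 1.9e-11). Cthrc1, a secreted protein of activated fibroblasts, had 0.393, 0.547, 0.168 and 0.232 FPKM in WTSH and 69.1, 85.6, 102 and 5.17 FPKM in WTTAC hearts, a difference of 5.06 (SE 0.50, adjusted p = 4.2e-11). Heart 5 was above the WTSH hearts for both and far below the other WTTAC hearts. The adhesive glycoprotein fibronectin (Fn1) rose by 4.05 (SE 0.38, adjusted p = 9.7e-12), and Sparc, which binds collagen as it is assembled, by 3.05 (SE 0.27, adjusted p = 3.2e-12). Among the other large rises were Cilp, a cartilage matrix protein that the injured heart also makes, which had 3.7, 1.96, 1.72 and 0.715 FPKM in WTSH and 83.8, 151, 83.7 and 21.8 FPKM in WTTAC hearts, the thrombospondin Thbs4, which had 3.24, 2.92, 1.08 and 0.989 FPKM in WTSH and 70, 74.3, 175 and 26.1 FPKM in WTTAC hearts, the microfibril protein Mfap4, which had 7.71, 7.14, 3.95 and 2.07 FPKM in WTSH and 177, 222, 142 and 43.5 FPKM in WTTAC hearts, and the latent TGF-beta binding protein Ltbp2, which had 2.6, 1.12, 1.2 and 0.379 FPKM in WTSH and 56, 70.1, 79.3 and 10.3 FPKM in WTTAC hearts. Their differences were 4.64, 4.62, 4.46 and 4.32, with SE from 0.54 to 0.60 and adjusted p from 3e-09 to 1.2e-08. Tenascin-C (Tnc), chosen after its values were seen, had 0.227, 0.195, 0.166 and 0.185 FPKM in WTSH and 5.42, 8.88, 34.4 and 5.29 FPKM in WTTAC hearts. It is an adhesion-modulating protein of remodelling matrix, and heart 5 lay close to heart 1 in it.

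Of the 26 matrix proteases and inhibitors tested, 22 were higher and 1 lower as deposited, and 20 and 2 after scaling. The macrophage cysteine protease Ctss rose by 2.65 (SE 0.28, adjusted p = 1.9e-10), Adam12 by 1.21 (SE 0.14, adjusted p = 7.1e-10) and urokinase (Plau) by 0.97 (SE 0.12, adjusted p = 1.8e-09). Plau had 1.57, 1.29, 1.37 and 1.28 FPKM in WTSH and 3.17, 4, 4.32 and 3.22 FPKM in WTTAC hearts, with heart 5 level with heart 1. The inhibitors split. Timp1 had 2.22, 2.67, 2.97 and 2.15 FPKM in WTSH and 52.7, 49.2, 146 and 19.8 FPKM in WTTAC hearts (difference 3.94, SE 0.62, adjusted p = 5.7e-07), and Timp4, the member most abundant in the adult heart, had 11.3, 25.1, 33.9 and 21 FPKM in WTSH and 6, 3.85, 4.18 and 30.6 FPKM in WTTAC hearts (difference -1.37, SE 0.46, adjusted p = 0.011). The WTTAC and WTSH hearts overlapped in Timp4, since heart 5 lay within the WTSH range. Both were chosen after their values were seen, as was Mmp15, which was lower after scaling only.

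In the TGF-beta and activin pathway, whose ligands drive fibroblasts to make matrix, 22 of 27 members tested were higher and 0 lower as deposited (median 0.93). After scaling 16 were higher and 2, the co-receptor Tgfbr3 and the activin receptor Acvr2a, lower. All 3 ligands rose. Tgfb1 had 8.02, 7.29, 7.81 and 6.81 FPKM in WTSH and 19.6, 25.5, 26.1 and 14.1 FPKM in WTTAC hearts, Tgfb2 had 3.22, 2.89, 2.49 and 2.46 FPKM in WTSH and 18.7, 20.9, 21.8 and 5.96 FPKM in WTTAC hearts and Tgfb3 had 4.39, 4.22, 3.62 and 3.39 FPKM in WTSH and 37.1, 53.4, 29.7 and 8.65 FPKM in WTTAC hearts, with differences of 1.36, 2.11 and 2.52 (SE 0.32, adjusted p = 8.5e-09). Tgfb3 showed the widest spread between WTTAC hearts. The signalling receptor Tgfbr2 rose less, by 1.16 (SE 0.14, adjusted p = 3.9e-09). Fstl1, a secreted follistatin-like protein, rose by 3.45 (SE 0.31, adjusted p = 7.7e-12) and the SMAD corepressor Tgif1 by 1.57 (SE 0.19, adjusted p = 4e-09). The 3 ligands were named after their values were seen.

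**Figure D2:**
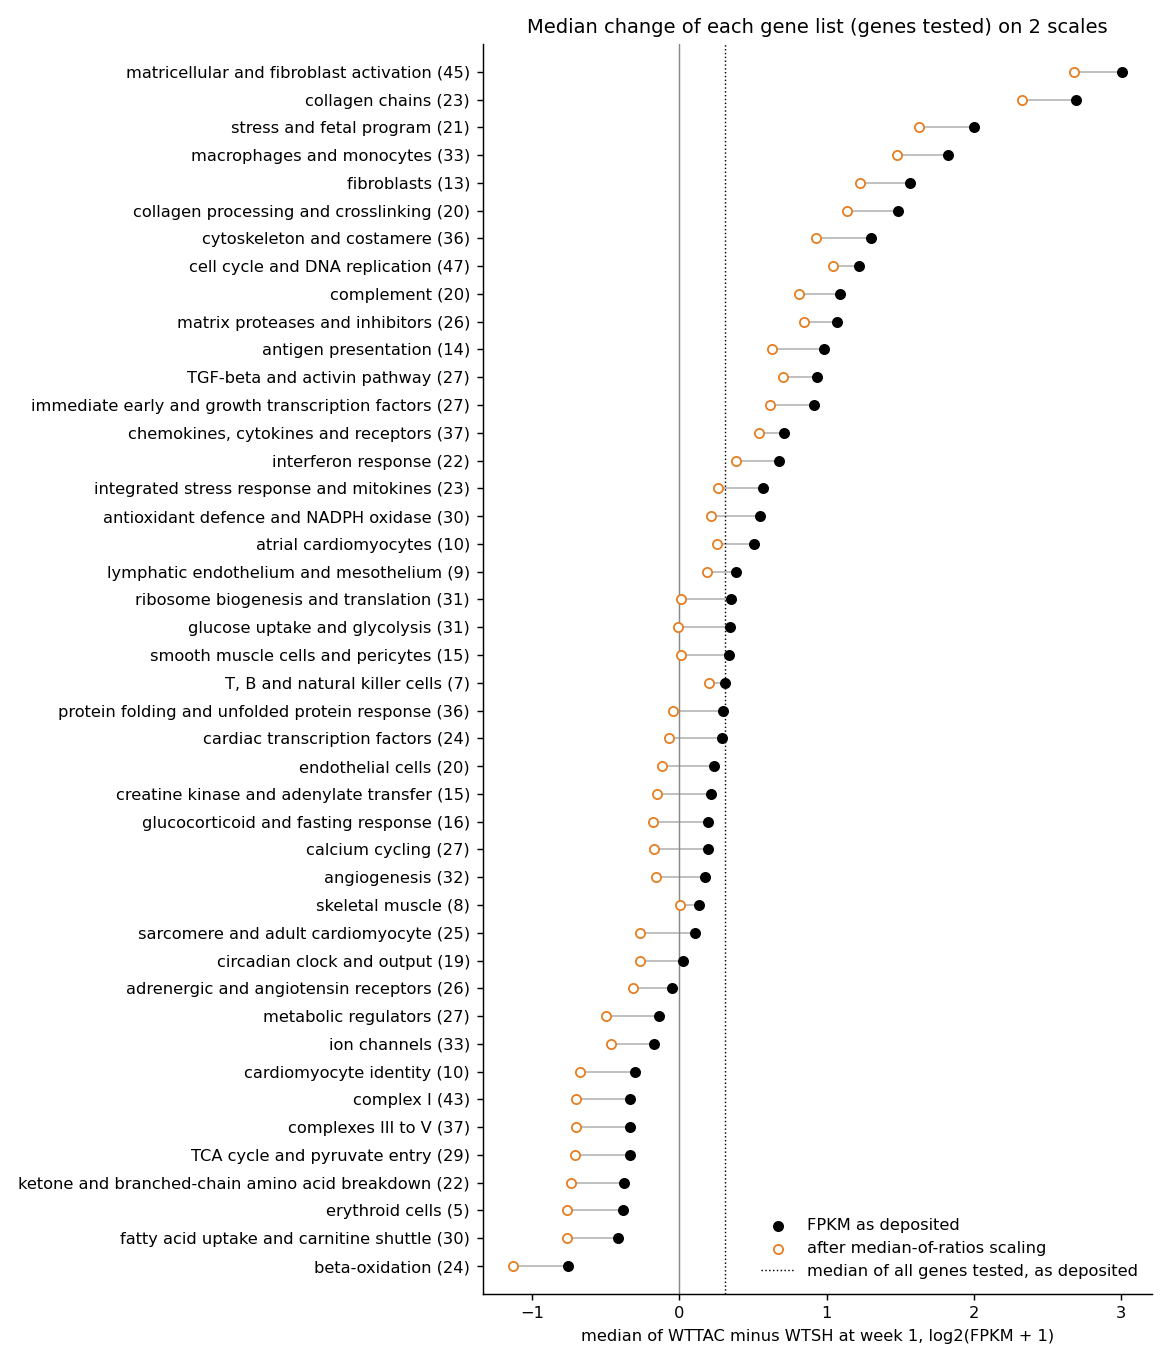
Median difference of WTTAC minus WTSH at week 1, in log2(FPKM + 1), of each gene list with 5 or more genes tested, as deposited (filled) and after median-of-ratios scaling (open). Matricellular genes (3.01 and 2.68) and collagens (2.69 and 2.33) lie at the top, beta-oxidation (-0.76 and -1.13) at the bottom, and the dotted line is the median of all genes as deposited, 0.31.

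The cell cycle and DNA replication genes that could be tested were nearly all higher. Of 55 members, 47 passed the filter of 1 FPKM in 4 or more of 64 libraries. Members near 0 in WTSH hearts could pass only through libraries where they were high, so the counts lean towards rises. The same can hold for the matrix protease, TGF-beta, early growth, macrophage and chemokine lists, which also lost members to the filter. Of the 47 tested, 44 were higher and 0 lower as deposited (median 1.22), 42 remained higher after scaling (median 1.05), and Ccnd2, Cenpf and Gins1 were not called. Ccna2, the S and G2 phase cyclin, had 0.149, 0.202, 0.273 and 0.21 FPKM in WTSH and 2.29, 2.16, 6.31 and 4.36 FPKM in WTTAC hearts, a difference of 1.90 (SE 0.20, adjusted p = 1.2e-10). Mcm6, a subunit of the replicative helicase, had 2.12, 1.93, 1.86 and 1.82 FPKM in WTSH and 5.15, 6.04, 8.29 and 6.67 FPKM in WTTAC hearts, and Tyms, thymidylate synthase, had 0.76, 0.919, 0.604 and 0.358 FPKM in WTSH and 4.42, 4.74, 8.75 and 3.76 FPKM in WTTAC hearts. Their differences were 1.35 (SE 0.12, adjusted p = 7.7e-12) and 1.90 (SE 0.20, adjusted p = 1.9e-10). Levels in WTSH hearts were low, at most 2.12 FPKM in these 3 genes, and each rose in all 4 WTTAC hearts. The proliferation marker Mki67, named after its values were seen, had 0.227, 0.248, 0.209 and 0.324 FPKM in WTSH and 1.64, 1.69, 5.21 and 4.83 FPKM in WTTAC hearts, a difference of 1.68 (SE 0.21, adjusted p = 7.6e-09). Hearts 4 and 5 were the highest for Mki67, Ccna2 and Top2a, which had 0.411, 0.238, 0.244 and 0.443 FPKM in WTSH and 2.97, 3.97, 10.3 and 7.36 FPKM in WTTAC hearts. Which cells carried these transcripts was not measured.

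Markers of macrophages and monocytes rose broadly, with 28 of 33 tested higher and 0 lower as deposited (median 1.83). After scaling 26 were higher and 1, Lyve1, lower. Mpeg1, a pore-forming protein of phagocytes, had 1.93, 2.04, 1.36 and 1.23 FPKM in WTSH and 21.8, 28.8, 23.3 and 4.75 FPKM in WTTAC hearts, and Emr1, the F4/80 antigen, had 2.07, 2.16, 1.75 and 1.69 FPKM in WTSH and 12.1, 15.5, 17.8 and 4.71 FPKM in WTTAC hearts. The rises were 2.75 (SE 0.28, adjusted p = 7.6e-11) and 2.09 (SE 0.22, adjusted p = 1.2e-10). Lysozyme (Lyz2), the most abundant of the markers named here, had 64.3, 62.3, 54.2 and 51 FPKM in WTSH and 268, 273, 315 and 132 FPKM in WTTAC hearts. Lyve1 and Cd163, known from resident cardiac macrophages, were not called as deposited. Lyve1 had 3.43, 4.36, 5.18 and 3.94 FPKM in WTSH and 2.1, 1.55, 2.08 and 5.43 FPKM in WTTAC hearts and Cd163 had 1.37, 1.55, 2.13 and 1.78 FPKM in WTSH and 1.28, 0.666, 1.44 and 3.37 FPKM in WTTAC hearts. In both, hearts 1, 2 and 4 lay within or below the WTSH range and heart 5 was the highest of all 8 (adjusted p = 0.12 and 0.8). Folr2, Ly6c2 and Chi3l3 were not called either. Lyz2, Lyve1 and Cd163 were named after their values were seen.

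Of 48 chemokines, cytokines and receptors, 37 passed the filter. Members under 1 FPKM in WTSH hearts, such as Ccr2 and Cxcl10, passed through other libraries, so the counts can lean towards rises. Of the 37 tested, 24 were higher and 2 lower as deposited (all genes 51.2% and 4.83%). After scaling 20 were higher and 5 lower (all genes 23.1% and 18.9%). Ccr2, the receptor that brings monocytes out of the blood, had 0.845, 0.529, 0.613 and 0.575 FPKM in WTSH and 9.34, 10.9, 14.3 and 1.74 FPKM in WTTAC hearts, a difference of 2.37 (SE 0.27, adjusted p = 5.7e-10). Cxcl16 had 3.71, 4.39, 3.57 and 2.42 FPKM in WTSH and 24.5, 23.7, 22.1 and 6.56 FPKM in WTTAC hearts, and the interferon-induced Cxcl10 had 0.376, 0.804, 0.176 and 0.111 FPKM in WTSH and 5.16, 3.47, 5.2 and 1.88 FPKM in WTTAC hearts, with differences of 2.03 (SE 0.28, adjusted p = 4.7e-08) and 1.81 (SE 0.25, adjusted p = 4.1e-08). Ccl2, the classical ligand of Ccr2, was not called (difference 0.20, SE 0.36, adjusted p = 0.65), while Ccl8, another monocyte attractant, had 1.79, 2.09, 1.11 and 1.76 FPKM in WTSH and 17, 8.25, 17.5 and 6.1 FPKM in WTTAC hearts and rose by 2.19 (SE 0.38, adjusted p = 3.3e-06). Ccl11 (eotaxin) had 3.09, 3.58, 2.98 and 2.24 FPKM in WTSH and 0.455, 0.215, 0.57 and 0.879 FPKM in WTTAC hearts, a difference of -1.38 (SE 0.27, adjusted p = 2.6e-05) with all 4 WTTAC hearts below the WTSH hearts. Cxcl14 was the other gene lower on both scales. Ccl2, Ccl8, Ccl11 and Cxcl14 were named after their values were seen.

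Genes of antigen presentation were higher in 13 of 14 cases as deposited (median 0.98) and in 8 after scaling. H2-Ab1, a class II chain, had 20.8, 23.3, 10.8 and 13.6 FPKM in WTSH and 141, 132, 94 and 16.9 FPKM in WTTAC hearts, and H2-DMa, which loads class II molecules, had 1.69, 2.92, 1.12 and 1.75 FPKM in WTSH and 11.6, 10.7, 9.44 and 2.54 FPKM in WTTAC hearts. Hearts 1, 2 and 4 were well above the WTSH hearts and heart 5 lay inside their range in both (differences 2.12, SE 0.42, adjusted p = 3.7e-05, and 1.62, SE 0.29, adjusted p = 4.8e-06). The interferon response rose more evenly, with 20 of 22 tested higher as deposited (median 0.68) and 13 after scaling. Isg15, a ubiquitin-like interferon product, had 2.95, 3.86, 2.69 and 2.6 FPKM in WTSH and 14.4, 9.37, 11.1 and 6.96 FPKM in WTTAC hearts, Irf7 had 5.3, 5.9, 4.65 and 6.42 FPKM in WTSH and 18.1, 14.7, 19.2 and 11.2 FPKM in WTTAC hearts and Oasl2 rose by 1.25 (SE 0.18, adjusted p = 1.1e-07). Isg15 and Irf7 rose by 1.48 (SE 0.23, adjusted p = 3.1e-07) and 1.34 (SE 0.21, adjusted p = 4.3e-07), and heart 5 was above all WTSH hearts. Complement genes were higher in 16 of 20 cases as deposited and in 14 after scaling, with C7 and Cd59a lower after scaling. C1qb rose by 2.11 (SE 0.25, adjusted p = 1.5e-09) and the anaphylatoxin receptor C3ar1 by 1.69 (SE 0.18, adjusted p = 1.3e-10).

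Neutrophil and lymphocyte markers were scarce. Only 3 of 13 neutrophil markers passed the filter on low values, and their summed level was 2.85 to 19.9 FPKM in WTSH and 2.38 to 4.58 FPKM in WTTAC hearts. S100a9, a calcium-binding protein of neutrophils, had 1.46, 7.35, 8.03 and 2.06 FPKM in WTSH and 0.444, 0.845, 0.585 and 0.676 FPKM in WTTAC hearts, and its partner S100a8 had 0.51, 6.05, 9.86 and 1.76 FPKM in WTSH and 0.218, 0.415, 1.33 and 0.907 FPKM in WTTAC hearts. The highest values were those of WTSH hearts 2 and 3, and the differences were -1.58 (SE 0.44, adjusted p = 0.0023) and -1.34 (SE 0.43, adjusted p = 0.0073). The third marker tested, the granulocyte colony-stimulating factor receptor Csf3r, was higher on both scales, with 0.326, 0.283, 0.499 and 0.576 FPKM in WTSH and 1.24, 1.31, 1.89 and 0.283 FPKM in WTTAC hearts (difference 0.56, SE 0.16, adjusted p = 0.0019), and its heart 5 lay at the lower end of the WTSH range. Of 20 markers of T, B and natural killer cells 7 were tested, and 3 were higher and 0 lower as deposited and 2 and 1 after scaling, against 51.2% and 23.1% of all genes higher on the 2 scales, led by the immunoglobulin heavy chain Ighm, which had 2.91, 3.25, 1.93 and 3.21 FPKM in WTSH and 9.28, 10.4, 8.26 and 4.59 FPKM in WTTAC hearts.

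**Figure D3:**
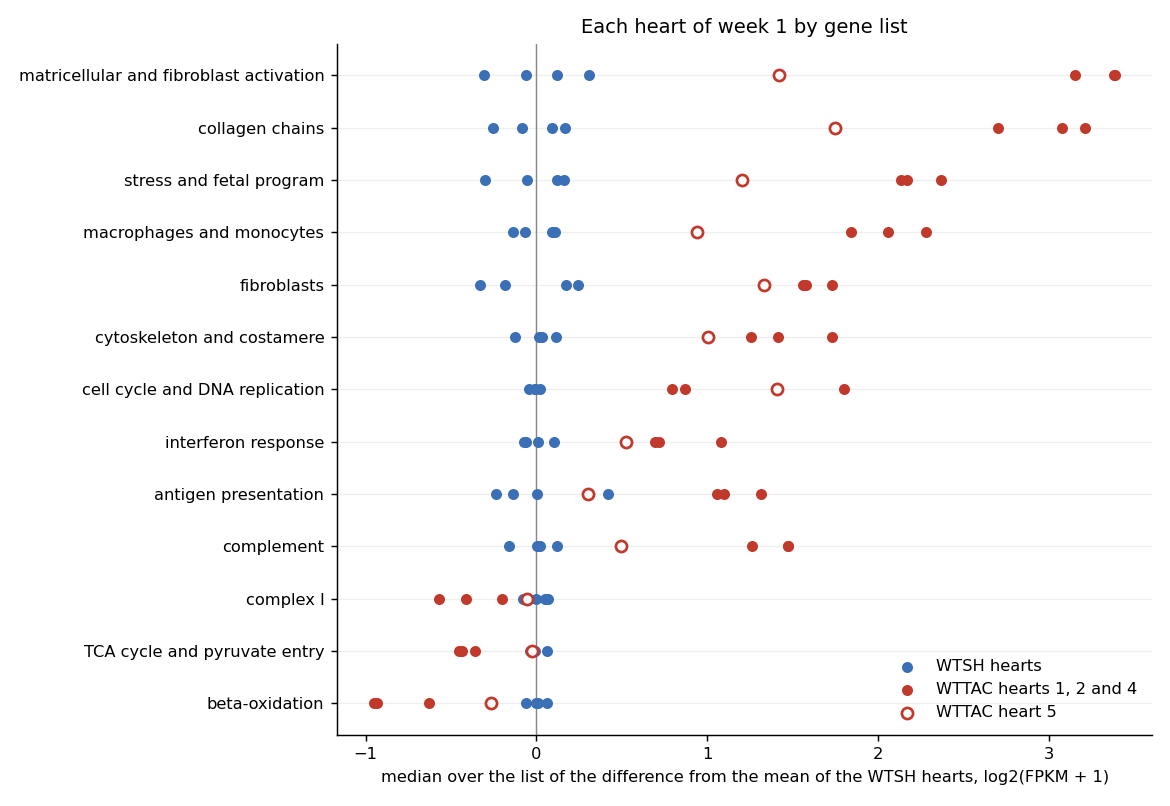
Median over each gene list of the difference from the mean of the WTSH hearts, in log2(FPKM + 1), for each of the 8 hearts. WTTAC heart 5 (open) lies between the WTSH and the other WTTAC hearts for matrix, stress and macrophage lists, is second highest for the cell cycle at 1.41, and is near the WTSH hearts for the TCA cycle at -0.03 and complex I at -0.05.

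Genes of fatty acid use were the main group to fall. Of 24 beta-oxidation genes tested, 17 were lower and 0 higher as deposited (median -0.76), and all 24 were lower after scaling (median -1.13). Ech1, which prepares unsaturated fatty acids for oxidation (chr7:29610236-29617266), had 969.9, 987, 1003 and 897 FPKM in WTSH and 371, 237, 259.8 and 499.8 FPKM in WTTAC hearts, a difference of -1.56 (SE 0.25, adjusted p = 6.6e-07). Hadhb, the thiolase subunit of the mitochondrial trifunctional protein, had 387, 388, 391.85 and 363 FPKM in WTSH and 240.2, 191, 177 and 258 FPKM in WTTAC hearts, and Acat1, which acts on the last product, had 199, 190.2, 196 and 187 FPKM in WTSH and 119.8, 89, 99.1 and 162 FPKM in WTTAC hearts. Their differences were -0.84 (SE 0.12, adjusted p = 1.1e-07) and -0.75 (SE 0.13, adjusted p = 2.5e-06). The groups did not overlap in any of the 3, as for 49.5% of all genes in either direction, and heart 5 was the nearest to WTSH each time. The summed level of the 24 genes was 5950 to 6520 FPKM in WTSH and 2970 to 4710 FPKM in WTTAC hearts. Of 30 genes of fatty acid uptake and the carnitine shuttle, 17 were lower and 5 higher as deposited (median -0.41), and 21 and 3 after scaling. The thioesterase Acot1 had 11, 13.6, 14.9 and 12 FPKM in WTSH and 2.81, 2.38, 2.42 and 6.97 FPKM in WTTAC hearts, a difference of -1.67 (SE 0.28, adjusted p = 2e-06), and the endothelial and muscle fatty acid translocase Cd36 had 424, 517, 549.8 and 484 FPKM in WTSH and 321, 305, 290.3 and 421 FPKM in WTTAC hearts, a difference of -0.57 (SE 0.12, adjusted p = 0.00012). Ucp2, Acsl5 and Acsl4 rose on both scales. Ucp2, an uncoupling protein of many cell types including macrophages, had 19.3, 30.8, 18.9 and 20.9 FPKM in WTSH and 56.6, 72.4, 82.3 and 61.2 FPKM in WTTAC hearts, a difference of 1.57 (SE 0.21, adjusted p = 2.9e-08).

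Genes of the TCA cycle and pyruvate entry were lower in 15 of 29 cases as deposited (median -0.33) and in 24 after scaling (median -0.71), and none was higher on either scale. Sdha, the flavoprotein of complex II, had 479, 472, 508 and 485 FPKM in WTSH and 307, 296, 247 and 376 FPKM in WTTAC hearts, and Idh2, the mitochondrial NADP isocitrate dehydrogenase, had 1033, 876, 860.3 and 889 FPKM in WTSH and 671, 568, 405 and 648 FPKM in WTTAC hearts. Their differences were -0.68 (SE 0.13, adjusted p = 2.6e-05) and -0.70 (SE 0.16, adjusted p = 0.00017). In the respiratory chain the count depended on the scale. Of 43 complex I genes 17 were lower as deposited (median -0.33) and 42 after scaling (median -0.70), all but Ndufa11, and none was higher. Ndufs1, the largest core subunit, had 259, 252, 254 and 243 FPKM in WTSH and 194, 171, 149 and 201 FPKM in WTTAC hearts, a difference of -0.50 (SE 0.16, adjusted p = 0.0065) and of -0.88 after scaling (adjusted p = 6.9e-06). The gene deleted in the KO mice, Ndufs4, had 108, 112, 100.1 and 94.5 FPKM in WTSH and 90.1, 59, 72.1 and 96 FPKM in WTTAC hearts, which was not called as deposited (-0.40, SE 0.19, adjusted p = 0.066) and was lower after scaling (-0.77, adjusted p = 0.0012). Of 37 nuclear genes of complexes III to V, 16 were lower and 2, Cox6a1 and Cox8a, higher as deposited, and 33 were lower and 0 higher after scaling. Cox7a1, the heart and muscle form of a cytochrome oxidase subunit, had 2214, 2024, 2143 and 1828 FPKM in WTSH and 1360.4, 802, 821 and 1326 FPKM in WTTAC hearts, a difference of -0.97 (SE 0.22, adjusted p = 0.00017). Atp5a1, the α subunit of ATP synthase, had 1656, 1669.5, 1699 and 1657 FPKM in WTSH and 1241, 1211, 1090.5 and 1377 FPKM in WTTAC hearts, and a difference of -0.45 (SE 0.08, adjusted p = 6.5e-06). Ketone and branched-chain amino acid breakdown followed, with 14 of 22 lower as deposited and 21 after scaling, all but Bdh1.

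Glucose genes went in both directions. Of 31 tested, 16 were higher and 6 lower as deposited (all genes 51.2% and 4.83%), and 10 and 9 after scaling (all genes 23.1% and 18.9%). Those higher on both scales were Slc2a1, Gpi1, Pfkp, Pgk1, Pgam1, Eno1, Ldha, Slc16a3, G6pdx and Gyg. Those lower on both were Slc2a4, Pfkm, Pfkfb1, Eno3, Ldhb and Pygm. The platelet phosphofructokinase Pfkp had 14.8, 19.5, 17.2 and 14.6 FPKM in WTSH and 51.1, 58.9, 65.4 and 48.1 FPKM in WTTAC hearts, a difference of 1.70 (SE 0.26, adjusted p = 4.7e-07), and the lactate exporter Slc16a3 had 0.615, 0.916, 0.591 and 0.39 FPKM in WTSH and 4.03, 4.79, 6.9 and 1.93 FPKM in WTTAC hearts, a difference of 1.66 (SE 0.26, adjusted p = 5.9e-07). Pfkfb1, a muscle and liver regulator of glycolysis, had 5.3, 6.21, 6.64 and 6.72 FPKM in WTSH and 1.08, 0.634, 1.35 and 3.81 FPKM in WTTAC hearts, a difference of -1.53 (SE 0.28, adjusted p = 8.1e-06). The carboxylesterase Ces1d had the largest fall of all genes without overlap, with 29.6, 19.4, 27 and 25.4 FPKM in WTSH and 5.39, 1.35, 1.95 and 4.33 FPKM in WTTAC hearts and a difference of -2.73 (SE 0.54, adjusted p = 3.3e-05).

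The opposed pairs were isoforms of the same step, and their ratio within a heart does not depend on the scale between hearts. These pairs were chosen after their values were seen, so the ratios are a description. The non-muscle enolase Eno1 was at 3.24% to 3.64% of the muscle form Eno3 in WTSH hearts and at 5.16% to 9.89% in WTTAC hearts. Lactate dehydrogenase A was at 30.1% to 37.0% of the B form in WTSH hearts and at 61.2% to 98.0% in WTTAC hearts. For the phosphofructokinases Pfkp and Pfkm the shares were 4.89% to 7.12% and 18.3% to 33.9%. The glucose transporter Slc2a1 (GLUT1) was at 3.35% to 3.97% of the insulin-responsive Slc2a4 (GLUT4) in WTSH hearts and at 5.11% to 15.7% in WTTAC hearts. Brain-type creatine kinase (Ckb) was at 1.05% to 1.15% of the muscle form (Ckm) in WTSH hearts and at 1.61% to 5.45% in WTTAC hearts. The largest shift among the pairs computed, 8.6 times in the group means, was that of the ribosomal protein Rpl3 to its muscle paralog Rpl3l, from 4.42% to 5.31% up to 20.7% to 63.3%. Rpl3l had 188, 190.0, 174 and 164 FPKM in WTSH and 76.7, 52.4, 52.4 and 109.9 FPKM in WTTAC hearts. Rpl3 levels rest on uniquely mapped reads of a gene with many near-identical pseudogenes and are uncertain. In all these pairs every WTTAC heart was above every WTSH heart, heart 5 was the lowest or, for the lactate dehydrogenases, second lowest WTTAC heart, and the ratio of phospholamban to its pump, Pln to Atp2a2, overlapped between the groups.

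**Figure D4:**
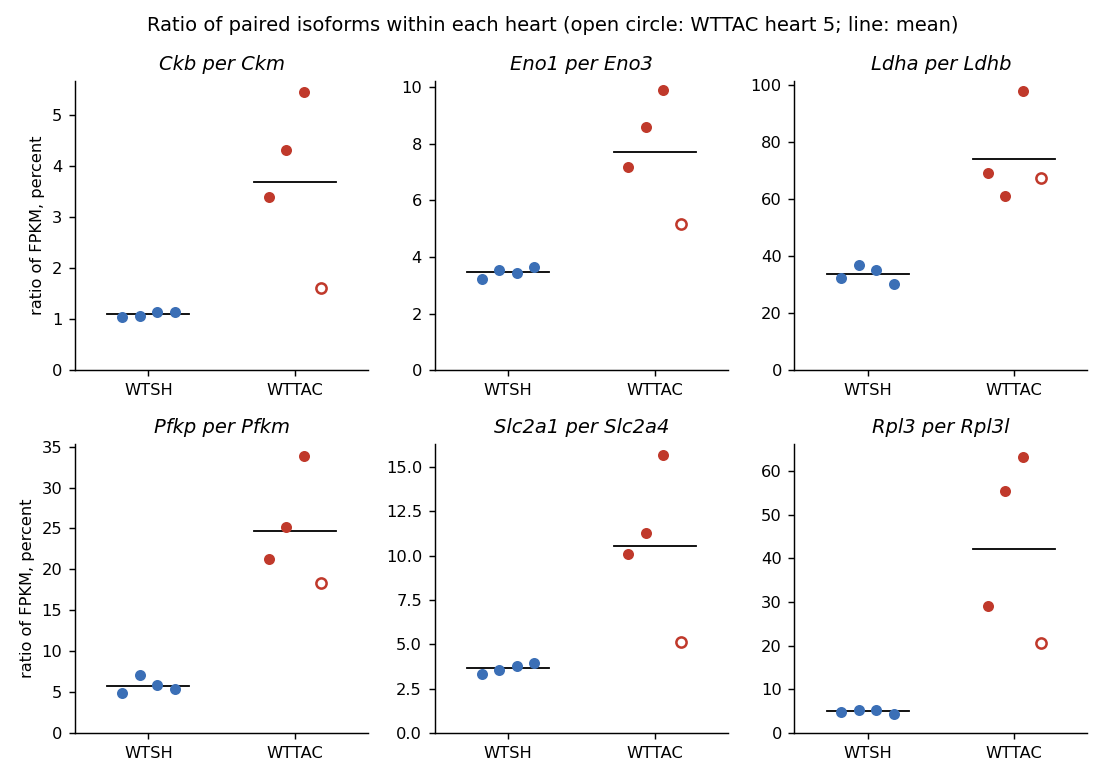
Ratio of 6 pairs of isoforms or paralogs in each of the 8 hearts of week 1, in percent of FPKM on linear axes from 0, each point a heart, the line the group mean and the open circle WTTAC heart 5. All WTTAC hearts lie above all WTSH hearts in the 6 pairs, and the means differ by 2.2 times for Eno1 to Eno3 and for Ldha to Ldhb and by 8.6 times for Rpl3 to Rpl3l.

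Genes of calcium cycling, which sets the force and speed of the beat, went both ways. Of 27 tested, 7 were higher and 3 lower as deposited (all genes 51.2% and 4.83%), and 2 and 9 after scaling (all genes 23.1% and 18.9%). Atp2a2, the SERCA2 calcium pump, had 1736, 1774, 2052 and 1958 FPKM in WTSH and 915, 842, 958 and 1571 FPKM in WTTAC hearts, Pln, its inhibitor phospholamban, had 2251, 2086, 2121 and 2026 FPKM in WTSH and 1494, 1318, 1199 and 1570.5 FPKM in WTTAC hearts, and Hrc, a luminal calcium-binding protein, had 383, 389.7, 393 and 357 FPKM in WTSH and 166, 129, 115 and 269.6 FPKM in WTTAC hearts. Their differences were -0.85 (SE 0.25, adjusted p = 0.0029), -0.61 (SE 0.15, adjusted p = 0.00037) and -1.24 (SE 0.19, adjusted p = 2.3e-07). In these 3 genes no WTTAC heart reached the WTSH range, and 49.5% of all genes had no overlap in either direction. The release channel Ryr2 was lower only after scaling (-0.69, adjusted p = 0.037). Jsrp1 and the calstabin Fkbp1b were the 2 higher on both scales, both at low levels. Of 33 ion channel genes 9 were lower and 4 higher as deposited, and 16 and 2 after scaling. The calcium cycling and ion channel lists held a smaller share of rises and a larger share of falls than all genes on each scale. The modulatory potassium channel subunit Kcnv2 (chr19:27397078-27411669) had 1.7, 1.72, 2.56 and 1.73 FPKM in WTSH and 0.163, 0.074, 0.113 and 0.362 FPKM in WTTAC hearts, a difference of -1.31 (SE 0.16, adjusted p = 2.7e-09). Kcnj3, a G protein-gated channel, had 14.6, 20.1, 21.3 and 23.1 FPKM in WTSH and 6.13, 6.32, 6.1 and 13.6 FPKM in WTTAC hearts, a difference of -1.26 (SE 0.26, adjusted p = 4.5e-05), and the transient outward current subunits Kcnd2 and Kcnip2 had differences of -0.74 (SE 0.24, adjusted p = 0.0068) and -0.78 (SE 0.25, adjusted p = 0.0074). The sodium channel β subunit Scn4b had 7.64, 11.4, 12.9 and 10.3 FPKM in WTSH and 2.65, 1.29, 3.7 and 9.12 FPKM in WTTAC hearts, a difference of -1.35 (SE 0.43, adjusted p = 0.0068). Heart 5 lay in the WTSH range for it. Atp2a2, Ryr2, Kcnd2, Kcnip2 and Scn4b were named after their values were seen.

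Of 26 receptors and regulators of the adrenergic and angiotensin systems, 7 were higher and 4 lower as deposited (all genes 51.2% and 4.83%). After scaling 4 were higher and 10 lower (all genes 23.1% and 18.9%). On each scale the list held a smaller share of rises and a larger share of falls than all genes. Angiotensin-converting enzyme (Ace) had 10.8, 11.8, 9.42 and 9.09 FPKM in WTSH and 43, 52, 51.6 and 37.2 FPKM in WTTAC hearts, a difference of 2.05 (SE 0.22, adjusted p = 2.6e-10). Its groups did not overlap, as for 49.5% of all genes, and there was little loss in heart 5. Rgs4, which ends G protein signals, rose by 0.74 (SE 0.15, adjusted p = 3.3e-05), and the cAMP phosphodiesterase Pde4d had 17, 17, 18.8 and 24.9 FPKM in WTSH and 10.1, 11.9, 8.15 and 13.4 FPKM in WTTAC hearts, a difference of -0.78 (SE 0.14, adjusted p = 4.5e-06). Grk5 and Pde5a were also higher, and Adra1a, Adra1b and Mme lower, on both scales. The β1 receptor Adrb1 had 5.49, 6.43, 5.34 and 6.62 FPKM in WTSH and 5.45, 5.42, 7.35 and 7.07 FPKM in WTTAC hearts, which overlapped and was not called (0.06, SE 0.21, adjusted p = 0.81).

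Contractile genes of the adult cardiomyocyte changed little as a list. Of 25 sarcomere genes 8 were higher and 4 lower as deposited (median 0.11), and 3 and 7 after scaling (median -0.27). Desmin (Des), the muscle intermediate filament, had 497, 452, 507 and 418 FPKM in WTSH and 1573, 1772, 1881 and 901 FPKM in WTTAC hearts, a difference of 1.66 (SE 0.22, adjusted p = 2.2e-08), and cardiac myosin-binding protein C (Mybpc3) had 896, 763, 731 and 731 FPKM in WTSH and 1481, 1681, 1188 and 1082 FPKM in WTTAC hearts, a difference of 0.78 (SE 0.15, adjusted p = 2.5e-05). Cardiac troponin I (Tnni3) had 4344, 4458, 4099.7 and 3771 FPKM in WTSH and 2563, 1925, 2116 and 3167 FPKM in WTTAC hearts, a difference of -0.79 (SE 0.21, adjusted p = 0.0016). Among the others, Pdlim5 rose and Myl2 and Ttn fell on both scales. Around the sarcomere, 34 of 36 cytoskeletal and costameric genes were higher and 0 lower as deposited (median 1.30), and 30 and 1 after scaling, the exception being Tuba4a. Vimentin (Vim), the filament of mesenchymal cells, had 119, 111, 75 and 74.7 FPKM in WTSH and 386, 445, 557 and 319 FPKM in WTTAC hearts, the calcium-binding S100a11 had 20.5, 21.6, 20.8 and 16.3 FPKM in WTSH and 86.9, 108, 159.6 and 65.4 FPKM in WTTAC hearts, and the non-muscle α-actinin Actn1 had 7.89, 7.54, 7.48 and 6.33 FPKM in WTSH and 28.2, 35.2, 54.6 and 16 FPKM in WTTAC hearts. Their differences were 2.16 (SE 0.23, adjusted p = 1.3e-10), 2.28 (SE 0.24, adjusted p = 1.4e-10) and 1.93 (SE 0.22, adjusted p = 8e-10). No WTTAC heart overlapped the WTSH hearts in any of the 3, as for 49.5% of all genes.

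Transcription factors of early growth were higher in 19 of 27 cases as deposited and in 15 after scaling, with 0 lower. Egr2 had 0.245, 0.163, 0.23 and 0.209 FPKM in WTSH and 5.33, 4.82, 6.18 and 1.06 FPKM in WTTAC hearts, a difference of 2.00 (SE 0.27, adjusted p = 2.3e-08), and Runx1, which is low in the adult heart, had 0.227, 0.306, 0.313 and 0.263 FPKM in WTSH and 2, 3.93, 4.32 and 0.456 FPKM in WTTAC hearts, a difference of 1.36 (SE 0.21, adjusted p = 3.3e-07). Genes not called in the fit of all 64 libraries included Fos, which had 0.381, 0.453, 1.1 and 0.819 FPKM in WTSH and 2.2, 1.45, 3.7 and 1.08 FPKM in WTTAC hearts (difference 0.83, SE 0.41, adjusted p = 0.078), Nr4a1, Nr4a2, Nr4a3, Klf2, Klf4, Zfp36 and Dusp1. This depended on the fit. With limma on the 8 hearts of week 1 alone, 23 of the 27 were higher and 4 not called, against 19 and 8. Of the cardiac transcription factors, 9 of 24 were higher and 1 lower as deposited, and 2 and 3 after scaling. Nfatc4, a calcineurin target, differed by 0.96 (SE 0.18, adjusted p = 1.2e-05), Wwtr1 (TAZ), a Hippo effector, by 0.80 (SE 0.12, adjusted p = 1.7e-07), and the homeodomain-only factor Hopx by -0.94 (SE 0.23, adjusted p = 0.00059).

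Stress pathways inside the cell were less uniform. In the integrated stress response 17 of 23 genes were higher as deposited and 10 after scaling, with 0 lower. Sesn2, a stress-induced inhibitor of mTORC1, had 0.798, 0.879, 0.913 and 0.938 FPKM in WTSH and 1.69, 1.82, 2.1 and 1.59 FPKM in WTTAC hearts, and the proline and serine synthesis enzymes Pycr1 and Psat1 had differences of 1.29 (SE 0.20, adjusted p = 3.6e-07) and 1.07 (SE 0.18, adjusted p = 1.9e-06). Ddit3 (CHOP) and Trib3, targets of strong stress, were not called. Protein folding genes were higher in 14 and lower in 3 of 36 cases as deposited and in 5 and 9 after scaling. Over all genes the shares were 51.2% and 4.83% as deposited, and 23.1% and 18.9% after scaling. Hspa5 (BiP), the main chaperone of the endoplasmic reticulum, had 218, 299, 293 and 199 FPKM in WTSH and 169.9, 159.5, 191 and 171 FPKM in WTTAC hearts, a difference of -0.52 (SE 0.16, adjusted p = 0.0056), while Edem1, which takes misfolded proteins to degradation, rose by 0.93 (SE 0.11, adjusted p = 2.9e-09). Of 30 antioxidant and oxidase genes, 16 were higher and 4 lower as deposited, and 11 and 9 after scaling, to be read against the same shares. The phagocyte NADPH oxidase subunits Ncf1 and Cybb had 1.02, 0.838, 0.833 and 0.819 FPKM in WTSH and 4.38, 4.08, 6.79 and 2.48 FPKM in WTTAC hearts and 1.23, 1.45, 0.939 and 1.24 FPKM in WTSH and 7.08, 10.3, 9.47 and 2.92 FPKM in WTTAC hearts, and rose with Ncf4, Nox4 and the cytosolic glutathione peroxidase Gpx1 on both scales. The mitochondrial enzymes Sod2 and Prdx3 were lower on both, with differences of -0.57 (SE 0.13, adjusted p = 0.00021) and -0.31 (SE 0.12, adjusted p = 0.025). Differences were 1.48 (SE 0.14, adjusted p = 2.8e-11) for Ncf1 and 1.82 (SE 0.20, adjusted p = 2e-10) for Cybb. In ribosome biogenesis and translation 16 of 31 were higher and 1, Rpl3l, lower as deposited, and 6 and 7 after scaling, near the shares of all genes (51.2% higher as deposited, 23.1% higher and 18.9% lower after scaling).

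Markers of other cell types were read beside these changes. Fibroblast markers were higher in 12 of 13 cases and lower in 1, Gsn, on both scales, and their summed level was 599 to 931 FPKM in WTSH and 1030 to 2650 FPKM in WTTAC hearts. Tcf21, a factor of resident fibroblasts, had 5.32, 3.83, 3.7 and 4.62 FPKM in WTSH and 18.7, 18.2, 15 and 9.37 FPKM in WTTAC hearts, a difference of 1.57 (SE 0.22, adjusted p = 6.4e-08), and Thy1 rose by 1.59 (SE 0.16, adjusted p = 9.7e-11). Of 20 endothelial markers 5 were higher and 2 lower as deposited (all genes 51.2% and 4.83%). After scaling 1 (Icam2) was higher and 4 were lower (all genes 23.1% and 18.9%). Of 15 smooth muscle and pericyte markers, 6 were higher and 1 lower as deposited, and 5 and 3 after scaling, led by Pdgfrb (1.06, SE 0.14, adjusted p = 1.9e-08) and Cspg4 (0.93, SE 0.13, adjusted p = 9.9e-08). The defining genes of cardiomyocytes summed to 40400 to 46700 FPKM in WTSH and 34700 to 44200 FPKM in WTTAC hearts. Of these 10 genes 2 were higher and 4 lower as deposited (median -0.30), and 0 and 7 after scaling (median -0.68), beside medians of -0.33 and -0.71 for the TCA cycle and -0.33 and -0.70 for complex I. Under quantile normalization 1 of the 10 was higher and 0 lower (median 0.394), beside medians of -0.469 for the TCA cycle and -0.511 for complex I. The comparison of these lists therefore depended on the scale. Lung epithelial markers summed to at most 0.175 FPKM in WTSH and 0.547 FPKM in WTTAC hearts, and thymus markers to at most 0.0857 and 0.691 FPKM, and 0 of either passed the filter. Erythroid genes were not called (0 of 5) and summed to 1110 to 2940 FPKM in WTSH and 1020 to 1500 FPKM in WTTAC hearts. Of 8 skeletal muscle genes tested, Tnnt3 and Myl1 were higher, Myl1 with 11.8, 23.3, 14.4 and 13.8 FPKM in WTSH and 60.5, 71.2, 62.3 and 58 FPKM in WTTAC hearts, while Ckm and Myh1 were lower. Clock genes, read as a check on the hour of sampling, were higher in 3 of 19 cases and lower in 1 as deposited (all genes 51.2% and 4.83%). After scaling 1 was higher and 2 were lower (all genes 23.1% and 18.9%). The part of each of these in the matrix, immune and metabolic differences was not tested.

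WTTAC heart 5 was a weak responder for some groups of genes and not for others. Among the genes called higher it was the lowest WTTAC heart for 41 of 42 matricellular genes, 21 of 23 collagens, 19 of 20 collagen-processing genes, 21 of 22 TGF-beta genes, 19 of 19 early growth factors, 27 of 28 macrophage genes and 13 of 13 antigen presentation genes. For the cell cycle it was the lowest in 1 of 44 genes and the highest or second highest in 42 of 44. Mki67, with 4.83 FPKM in heart 5 against 1.64 and 1.69 FPKM in hearts 1 and 2, and Ccr2, with 1.74 against 9.34 and 10.9 FPKM, show the contrast. The list median of the cell cycle in hearts 1, 2, 4 and 5 was 0.79, 0.87, 1.80 and 1.41, and that of macrophages was 1.84, 2.06, 2.28 and 0.94. Of the genes called lower, heart 5 was the WTTAC heart nearest to WTSH in 17 of 17 of fatty acid uptake, 16 of 17 of beta-oxidation, 13 of 15 of the TCA cycle and 13 of 17 of complex I. For the cytoskeletal genes called higher it was the lowest in 22 of 34. Over all genes called without overlap it was the nearest in 293 of 433 falls and 4227 of 5675 rises. Those shares leave out called genes in which the groups overlapped, while the list counts include them. The list counts therefore cannot be ranked against them. These genes of 1 heart share its library, and the pattern rests on a single heart.

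The week 1 response was set against that of other wild-type hearts at weeks 4 and 8, each with its own WTSH group, by testing the difference of the differences. At week 1 the response was higher than the mean of weeks 4 and 8 for 4676 genes (34.2%) and lower for 54 (0.396%), and after scaling for 1190 (8.72%) and 414 (3.03%). Of the cell cycle genes that passed the filter, which favours genes high in some libraries, 43 of 47 were higher at week 1, and 41 after scaling. Their median difference was 1.22 at week 1, 0.46 at week 2, 0.13 at week 4 and -0.04 at week 8. Ccna2 differed from the later weeks by 1.88 (SE 0.24, adjusted p = 5.7e-07). Macrophage markers followed, with 27 of 33 higher at week 1 and 24 after scaling, and medians of 1.83, 1.03, 0.24 and 0.24. Ccr2 had differences of 2.37 at week 1 and 0.92, 0.38 and 0.06 at weeks 2, 4 and 8. Collagens were higher at week 1 in 20 of 23 cases and in 17 after scaling, with medians of 2.69, 1.72, 0.82 and 0.89. Their response was smaller later but 14 of 23 were still called at week 8.

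The stress program did not follow that course. Its medians were 2.00, 0.87, 1.04 and 1.70, and 3 of its 21 genes (Clu, Ccdc80 and Uchl1) were higher at week 1 than at weeks 4 and 8, with Clu alone called after scaling. Nppb differed by 2.31 at week 1 and 3.11 at week 8, and Nppa by 4.83 and 4.80, and the differences between week 1 and the later weeks were not called (-0.14, SE 0.62, adjusted p = 0.89, and 1.10, SE 0.82, adjusted p = 0.31). Within the matricellular genes 27 of 45 were higher at week 1 and 16 after scaling. Cthrc1 was among the largest, with 5.06 at week 1, 1.53 at week 2, 0.50 at week 4 and 1.03 at week 8, a contrast of 4.30 (SE 0.61, adjusted p = 1.5e-06). Postn had 5.81, 3.22, 2.03 and 3.89, a contrast of 2.85 (SE 0.65, adjusted p = 0.0007). The serpin Serpinb1a, a leukocyte protease inhibitor, had 1.09, 1.25, 1.29 and 1.27 FPKM in WTSH and 28.7, 35.2, 73.8 and 2.78 FPKM in WTTAC hearts and a contrast of 3.19 (SE 0.49, adjusted p = 4.8e-06). Of the beta-oxidation genes 2 were lower at week 1 than later and 1 higher as deposited, and 11 were lower and 0 higher after scaling. Week 4 had few calls of its own in wild-type hearts (6 higher and 23 lower), against 4893 and 1437 at week 2 and 1410 and 835 at week 8. These counts moved with the settings. Array weights gave 989 higher and 727 lower at week 4 and 2752 and 1985 at week 8. At week 2, WTTAC hearts 3 and 4 and KOTAC hearts 3 and 4 had levels that depended on transcript length, with slopes of -0.12, -0.111, -0.117 and -0.099 (log2) for each doubling in length, against -0.015 to 0.061 in the 8 hearts of week 1. Without these 4 libraries the counts were 2925 and 369 at week 2, 84 and 145 at week 4, and 1976 and 1279 at week 8. Their part in the week 2 medians was not tested.

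**Figure D5:**
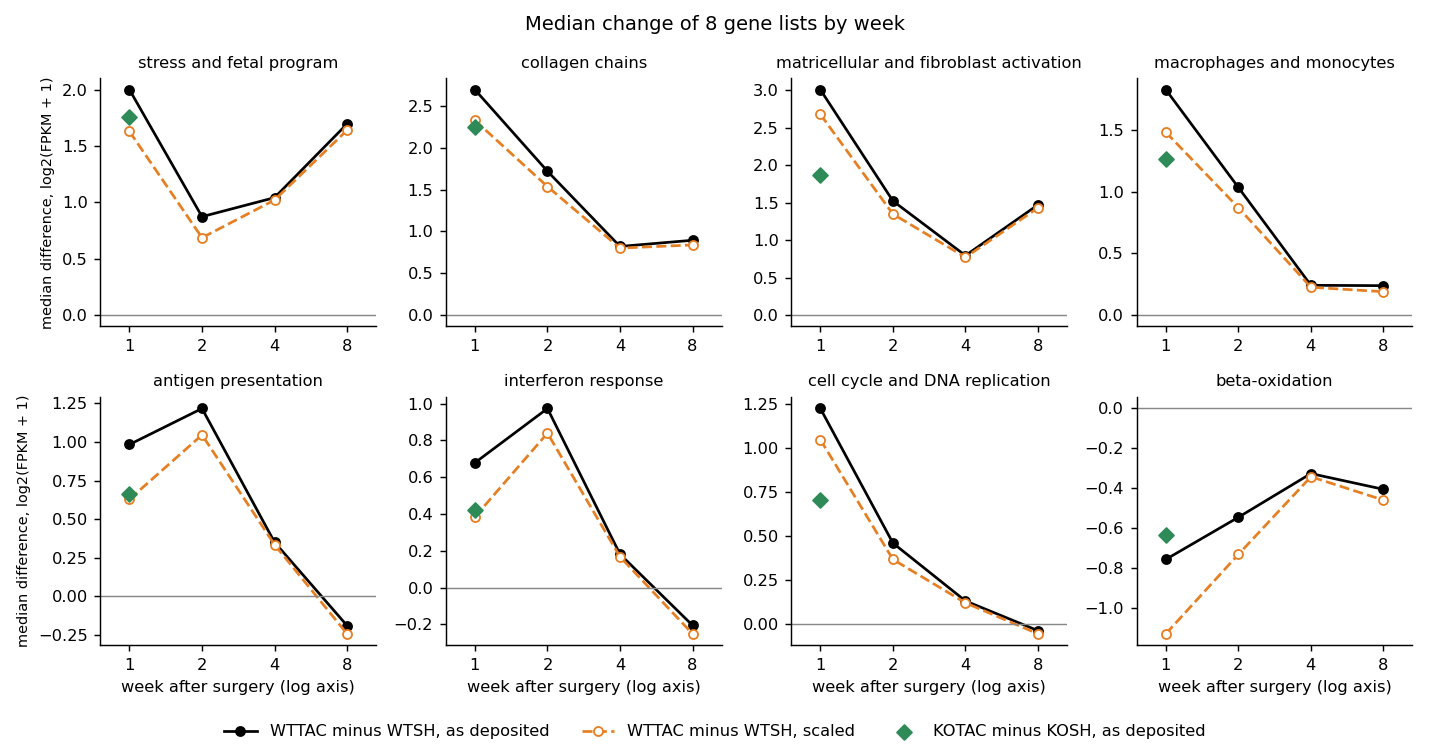
Median difference of WTTAC minus WTSH, in log2(FPKM + 1), of 8 gene lists at weeks 1, 2, 4 and 8 as deposited (filled circles) and scaled (open circles), with the KOTAC minus KOSH difference of week 1 (diamonds). Lines join group medians of different hearts. The cell cycle median goes from 1.22 at week 1 to -0.04 at week 8, and the stress program is at 2.00 and 1.70.

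Hearts lacking Ndufs4 in cardiomyocytes, with their own sham group, were the other week 1 comparison. There 4354 genes were higher and 684 lower, and medians were 1.76 for the stress program, 2.24 for collagens, 1.26 for macrophages and 0.70 for the cell cycle, against 2.00, 2.69, 1.83 and 1.22 in wild-type hearts. The test of the difference between the genotypes' responses called 0 of 13653 genes (0%) in limma, with 860 at an unadjusted p under 0.05. It called 283 with array weights, 46 with the replicate number as a block and 75 without WTTAC heart 5. Postn differed by 5.81 in wild-type and 4.50 in KO hearts, and Nppa by 4.83 and 3.82.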

How the data were processed

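RNA of each heart was made into TruSeq libraries and sequenced as paired reads of 50 bases on a HiSeq2000. For the single deposited table the authors aligned reads to mm9 (TopHat), discarded reads that mapped to several places or had 2 or more mismatches, and let Cufflinks estimate linear FPKM values per Ensembl release 66 gene. Tool versions and strand are not given in the sources used here, so genes with near-identical copies (Rpl3, Hba-a1, Sprr2a2) and overlapping genes are uncertain. FPKM values hold no read counts, so depth is unknown and the spread between hearts is the only measure of error.

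Values were analysed as log2(FPKM + 1), with a pseudocount of 1, over the 13653 of 30285 entries that reached 1 FPKM in 4 or more of 64 libraries. The test was limma 3.58.1 with a trend (R 4.3.3), fitted with a mean for each of 16 groups on all libraries, so that groups share 1 estimate of the spread. P-values were adjusted over all genes tested (Benjamini-Hochberg, 0.05). The study used a count-based test, which FPKM values do not allow. Lists and figures were handled in Python 3.11.15 (numpy 2.4.6, pandas 2.3.3, matplotlib 3.10.9). List entries were matched by symbol, 1187 of 1203 directly and 5 by synonym.

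The comparison, the 49 gene lists and the named genes were chosen with earlier results of these data known. Named were the 15 largest called rises and falls without overlap, per list the 3 members of largest moderated t, the 10 largest differences in each direction between week 1 and weeks 4 and 8, the 5 largest in each direction between genotypes if called (0 were), the stress and fetal program and Ndufs4. Any other gene named was chosen after its values were seen. Alternatives were other pseudocounts, filters, scalings, variance models and sample sets, a fold minimum, a block for the replicate number and leaving out each heart. Scaling together with leaving out WTTAC heart 5 was added after seeing the data. Some members of the lists are not reported here by name.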

Additional observations from a re-analysis of the deposited data

Results flagged for a closer look

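Within groups of 4 hearts, 32 of 357 groups tested had a heart set apart by more than Dixon's 95% critical value for 4 samples, where chance alone gives about 1 in 20. WTTAC heart 5 was that heart in 8, WTSH heart 1 in 6, WTSH heart 4 in 5, WTTAC heart 1 in 4, WTSH heart 2 and WTTAC heart 4 in 3 each, WTSH heart 3 in 2 and WTTAC heart 2 in 1. In FPKM, WTTAC heart 5 stood apart for Acot1 (6.97), Ctgf (68), Ier5 (9.54), Cxcl16 (6.56), Ndufa9 (284), Cox8a (181), Ucp3 (8.7) and Kcnj3 (13.6), in each case on the side of the WTSH hearts. WTTAC heart 1 stood apart for the mitochondrial tRNA entries mt-Ty (67500) and mt-Tg (9220), the microRNA entry Mir1902 (7.93e-10) and Stmn2 (7.72). WTTAC heart 2 stood apart for Scarna17 (172), and WTTAC heart 4 for Cspg4 (7.81), Srm (14) and Odc1 (35.9).

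Among WTSH hearts, heart 1 stood apart for Uchl1 (5.47), Ctgf (27.9), Pdgfrb (13.8), Idh2 (1030), Ncf1 (1.02) and Srm (4.84). Heart 2 stood apart for Ankrd2 (0.259), Mybphl (12.3) and Ucp2 (30.8), heart 3 for Ckb (14.2) and Kcnv2 (2.56), and heart 4 for Lox (0.567), Hadhb (363), Mccc2 (24.9), Rgs4 (4.46) and Cidea (13). Several of these are small steps in a tight group, such as Ckb at 13.5, 13.5 and 13.6 FPKM in the other WTSH hearts.

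Of the genes whose week 1 response differed from the mean of weeks 4 and 8 in limma, the 10 largest in each direction were taken. On the log2 scale, week 1 was higher for Scarna17 (6.16), Cthrc1 (4.3), Serpinb1a (3.19), Fn1 (3.04), Sprr1a (3.04), Col1a2 (3.01), Sprr2a2 (2.98), Col1a1 (2.88), Postn (2.85) and Lox (2.78). It was lower for Mir1902 (-8.75), S100a9 (-2.14), S100a8 (-1.98), mt-Ta (-1.87), mt-Tn (-1.78), mt-Tm (-1.7), mt-Ty (-1.66), mt-Tl1 (-1.51), Scd4 (-1.5) and mt-Tc (-1.22). Scarna17 was listed at 0 in all WTSH and in 3 WTTAC hearts of week 1, and Mir1902 at or near 0 in all WTTAC hearts and in WTSH heart 2.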

How the results depend on the processing

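Against 6992 genes higher and 659 lower, median-of-ratios scaling gave 3154 and 2580, quantile normalization 2762 and 3361, a minimum fold change of 2 gave 1210 and 72, and array weights 7869 and 1055. Scaling without WTTAC replicate 5, added after seeing the data, gave 3433 and 2777. Leaving out each heart gave 6220 to 7159 higher and 464 to 794 lower. The 8 week 1 hearts fitted alone gave 6931 and 683, and leaving out the 4 week 2 libraries with a length bias gave 7759 and 900. Against 4730 genes that differed between week 1 and weeks 4 and 8, scaling gave 1604, quantile normalization 1680, and scaling without WTTAC replicate 5 gave 2633, with 3719 to 5533 when 1 heart was left out. Against 0 genes that differed between the genotypes, no filter gave 1, array weights 283 and scaling without WTTAC replicate 5 gave 23, with 0 to 75 when 1 heart was left out and 75 without WTTAC replicate 5. Scaling moved the median difference of all genes from 0.31 to 0.0047, and the cause of the other changes was not tested.

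The replicate number as a block gave 6874 higher and 657 lower, 5120 between weeks and 46 between the genotypes. Same-numbered hearts had r of 0.223, -0.11 and 0.134 for their deviations from the group mean, and hearts of different numbers had r from -0.303 to 0.386. So few pairs cannot show whether the numbers pair the samples.

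Of 179 named genes 168 were called, and 140 kept call and direction under every alternative run. Scaling without WTTAC replicate 5 turned Slc25a5 (-0.0199) and Actn2 (-0.007732) below 0, and neither was then called.

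Read depth is unknown, so a gene listed at 0 is not shown to be absent. There were 37 entries at 0 in some of the 8 hearts with a median above 20 FPKM elsewhere, 16 of them mitochondrially encoded.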

Other observations

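Vessel genes were near the split of all genes after scaling. Of 32 angiogenesis genes 13 were higher and 3 lower as deposited, and 8 and 8 after scaling. Over all genes the shares were 51.2% and 4.83% as deposited, and 23.1% and 18.9% after scaling. The angiopoietin-like Angptl2 had 24.7, 20.4, 17.4 and 18.9 FPKM in WTSH and 45, 54.9, 52.1 and 42.7 FPKM in WTTAC hearts, the EGF family ligand Hbegf had 5.63, 5.32, 4.78 and 4.07 FPKM in WTSH and 20.8, 24.1, 30.6 and 11 FPKM in WTTAC hearts, and the vasoconstrictor endothelin (Edn1) had 1.87, 1.64, 1.55 and 1.09 FPKM in WTSH and 4.98, 4.01, 3.96 and 1.95 FPKM in WTTAC hearts. Their limma differences were 1.22 (SE 0.16, adjusted p = 7.4e-09), 1.85 (SE 0.27, adjusted p = 1.6e-07) and 0.86 (SE 0.14, adjusted p = 1.3e-06). Vegfb, the isoform rich in heart muscle and named after its values were seen, had 165, 167, 166 and 167 FPKM in WTSH and 128, 139, 136 and 166 FPKM in WTTAC hearts, and it was lower on both scales with WTTAC heart 5 in the WTSH range (-0.23, SE 0.09, adjusted p = 0.019). Of 9 lymphatic and mesothelial markers tested 4 were higher and 0 lower as deposited, and 4 and 2 after scaling. The podoplanin gene Pdpn had 1.01, 1.47, 1.16 and 1.31 FPKM in WTSH and 7.26, 8.29, 7.54 and 3.84 FPKM in WTTAC hearts, and the simple-epithelium keratin Krt18 had 0.0943, 0.112, 0.132 and 0.209 FPKM in WTSH and 4.31, 4.27, 14.6 and 0.407 FPKM in WTTAC hearts, differences of 1.75 (SE 0.24, adjusted p = 3.5e-08) and 2.13 (SE 0.38, adjusted p = 5.4e-06).

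Of 27 regulators of metabolism 5 were higher and 5 lower as deposited, and 3 and 15 after scaling. Dio3, which inactivates thyroid hormone, had 0.122, 0.0836, 0.0769 and 0 FPKM in WTSH and 1.05, 0.924, 3.05 and 0.207 FPKM in WTTAC hearts, a difference of 0.97 (SE 0.18, adjusted p = 9.4e-06). The retinoid receptor Rxrg had 38.8, 43.3, 47.9 and 39.8 FPKM in WTSH and 25.3, 20.4, 19.7 and 34.5 FPKM in WTTAC hearts, a difference of -0.77 (SE 0.14, adjusted p = 9.8e-06), and Prkag2, the AMPK subunit, had 11.2, 11.4, 10.3 and 12.1 FPKM in WTSH and 20.3, 24.5, 25.3 and 20.5 FPKM in WTTAC hearts, a difference of 0.94 (SE 0.20, adjusted p = 6.5e-05). Of 15 genes of creatine kinase and adenylate transfer, Ckb and Gatm, the first enzyme of creatine synthesis, were higher on both scales, and Ckm and Slc25a4 lower. Gatm had 1.27, 1.43, 0.842 and 1.11 FPKM in WTSH and 3.69, 3.94, 3.53 and 1.94 FPKM in WTTAC hearts, a difference of 0.96 (SE 0.16, adjusted p = 2.2e-06). Of 16 glucocorticoid and fasting genes 3 were higher and 1 lower as deposited, and 0 and 3 after scaling. The metallothionein Mt2 had 15.9, 20.1, 27.9 and 18.4 FPKM in WTSH and 47.2, 35.3, 62.4 and 80.5 FPKM in WTTAC hearts with heart 5 the highest, and was called as deposited (adjusted p = 0.041) but not without heart 5 (adjusted p = 0.103). Nerve and Schwann cell markers were higher in 2 of 4 cases as deposited and in 1 after scaling, the neurotrophin receptor Ngfr, which had 0.308, 0.296, 0.23 and 0.205 FPKM in WTSH and 1.27, 1.63, 1.27 and 0.417 FPKM in WTTAC hearts.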
